A study of Homo sapiens with 10 samples.

Results

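The HOX cluster genes were examined in HAP1, a near-haploid human cell line that came from the leukaemia line KBM-7. Members were the genes whose symbol was HOXA, HOXB, HOXC or HOXD followed by a number, which gave 39 of the 59453 genes in the count tables. HOXA held 11 of them (GRCh38 chromosome 7, 27092993 to 27200091), HOXB 10 (chromosome 17, 48528526 to 48728750), HOXC 9 (chromosome 12, 53938831 to 54056030) and HOXD 9 (chromosome 2, 176092721 to 176190907).

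RNA-seq had been run on 10 libraries, each from 1 clone of the line. The 8 untreated libraries were wild type (WT) clones 2 and 11, clones 7 and 8 lacking MUTYH, clones 1 and 22 lacking OGG1, and double knockout (DKO) clones 4 and 14 lacking both. The other 2 were WT clones 2 and 11 collected 24 h after 100 µM H2O2. OGG1 is the DNA glycosylase that removes 8-oxoguanine paired with cytosine, and MUTYH removes adenine paired with 8-oxoguanine; both genes were disrupted with CRISPR-Cas9. By the study's clone table, both DKO clones were made from a single OGG1 knockout clone, whose product number matches clone 22, so OGG1 knockout clone 22 and DKO clones 4 and 14 form 1 lineage with the same OGG1 deletion. OGG1 knockout clone 1 was made separately from WT HAP1.

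Total counts were 22225091 to 22674964 per library, so that a level of 1 CPM (the count scaled to library size, TMM-normalized) rested on 21.7 to 22.7 counts. The OGG1 transcript had 275 (clone 2) and 295 (clone 11) counts in WT and 27 in OGG1 knockout clone 1, but 254 in clone 22 and 223 and 215 in DKO. The MUTYH transcript had 105 and 89 counts in WT, 83 (clone 8) and 101 (clone 7) without MUTYH, and 50 (clone 14) and 106 (clone 4) in DKO. Transcript counts therefore showed the targeted gene as low in OGG1 knockout clone 1 and gave no check of the labels of the other knockout clones. The study also measured both proteins in each clone by targeted mass spectrometry, which was not analysed here. A principal component of the untreated libraries, computed without the HOX genes, held 31.1% of the variance and set 4 clones (WT 2, MUTYH knockout 8, OGG1 knockout 22, DKO 14) apart from their partners (WT 11, MUTYH knockout 7, OGG1 knockout 1, DKO 4). The labels name no batch that matches this split. Of 5 markers of blood cells, PTPRC, SPI1 and MPO stood at 0 to 3 counts in every library, although the line came from a leukaemia. The other markers, CD33 and CD34, had 1 to 11 and 3 to 23 counts over the 10 libraries.

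HOX proteins are homeodomain transcription factors that give cells of the early embryo their position along the head-to-tail axis. Their genes lie in clusters in which the order along the chromosome follows the order of expression along the body: low-numbered paralogs are used in the hindbrain, middle ones in the trunk, and high-numbered ones in the lumbosacral region, limb ends and genital tract. Adult cells and leukaemias keep part of such a code, and the marks of Polycomb and of KMT2A-type complexes hold clusters off or on.

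All 4 clusters were expressed, HOXA mainly at its high-numbered end and HOXB mainly at its low-numbered end. Of the 39 genes, 28 reached a mean of at least 1 CPM in a group: 10 of HOXA, 6 of HOXB, 7 of HOXC and 5 of HOXD. The other 11 had at most 30 counts in any library, 3 of them at most 3 counts in all 10, and HOXD1 had 0 counts throughout, where 3 counts is the limit that a count of 0 allows. Genes of paralog positions 9 to 13 took 59.0% to 65.4% of all HOX counts in the untreated libraries, positions 4 to 8 took 22.6% to 26.6%, and positions 1 to 3 took 11.2% to 14.7%. Within a cluster, positions 9 to 13 took 73.8% to 81.6% of the counts of HOXA in the untreated libraries, 22.9% to 30.0% of those of HOXB, 31.0% to 58.7% of those of HOXC and 36.8% to 76.4% of those of HOXD. Position 13 alone took 31.6% to 37.2% and position 9 took 15.0% to 19.3%.

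**Figure D1:**
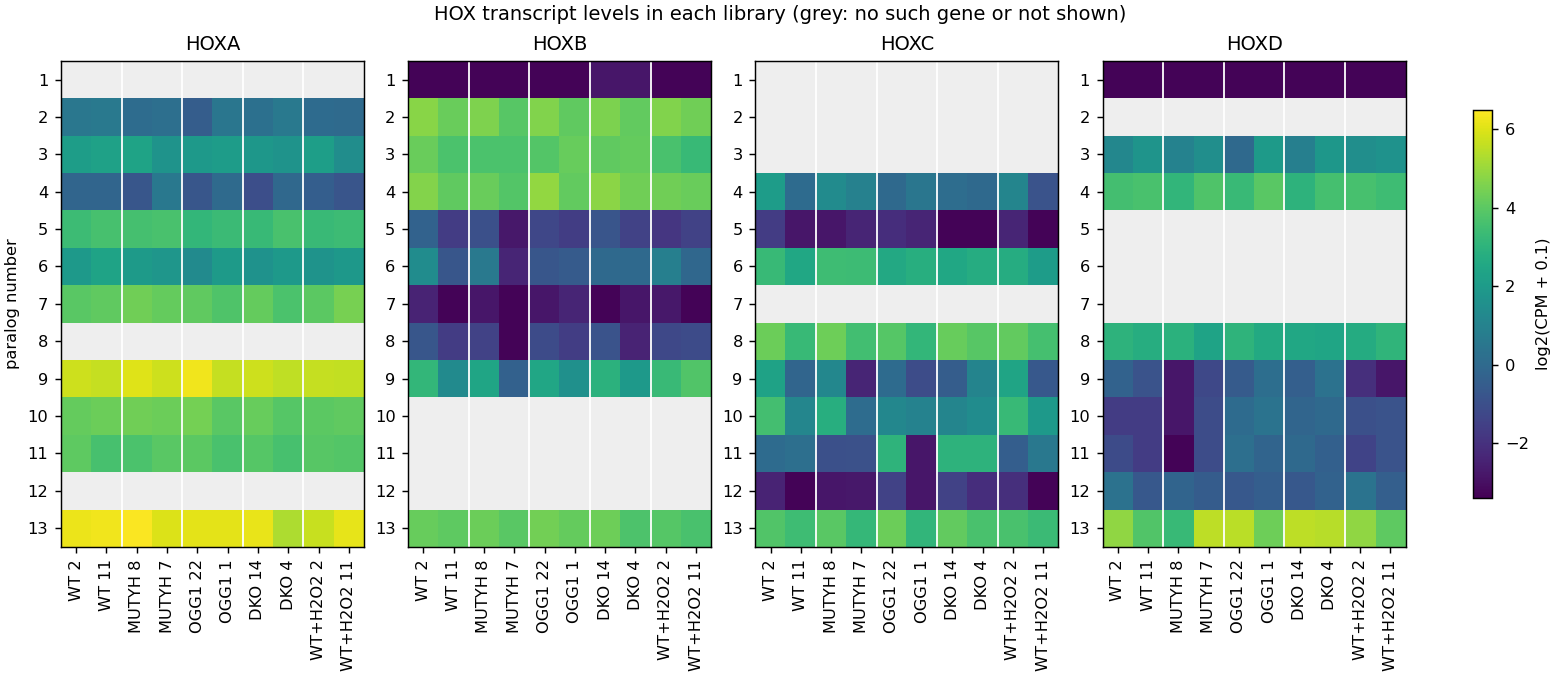
Each panel is a cluster, each row a paralog number and each column a library, and colour gives log2(CPM + 0.1), with grey where the cluster has no such gene or it is not shown. HOXA9, HOXA13 and HOXD13 are the brightest rows, HOXB1 and HOXD1 stay dark, and HOXC11 is bright in OGG1 knockout clone 22 and DKO clones 14 and 4.

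Levels were compared between genes as CPM per kb of exon, as mean ± SD over the 8 untreated libraries. HOXA9, a factor of blood progenitors and of many leukaemias, had the highest level at 18.5 ± 3.30 CPM per kb. HOXA13, which patterns the hand, foot and genital tract, followed at 13.5 ± 2.75, and HOXD13, its counterpart in digit formation, at 13 ± 6.34. HOXB4, known for expanding blood stem cells, stood at 10.6 ± 2.76 and HOXD4 at 10.1 ± 2.29. HOXA13, HOXD13, HOXB4 and HOXD4 lay within the SD of their neighbours in this order. HOXB2, a hindbrain gene, had 8.46 ± 1.74, HOXA7 6.85 ± 1.02, HOXA5 6.39 ± 0.848, HOXC8 6.03 ± 1.80, HOXB13 5.79 ± 0.802 and HOXC13, which acts in the hair follicle, 5.65 ± 1.65 CPM per kb. These neighbours again overlapped in spread. Some of the exon bases of HOXA7 (62.5%) lie within the antisense gene HOXA-AS3, and reads of such a pair cannot be told apart where strand was not used. HOXA9 shares 27.0% of its exon bases with other annotated genes, among them the antisense gene HOXA10-AS, so its level carries a like limit.

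HOXA varied least across clones of the 4 clusters. HOXA13 had 1660 (clone 2) and 1740 (clone 11) counts in WT, 1968 (clone 8) and 1346 (clone 7) without MUTYH, 1517 (clone 22) and 1504 (clone 1) without OGG1, and 1626 (clone 14) and 876 (clone 4) in DKO. DKO clone 4 was the low library. HOXA9 ranged from 1051 to 1738 counts over the untreated libraries with a median of 1183, highest in OGG1 knockout clone 22. HOXA10 and HOXA11, which act in the uterus and kidney, ranged from 331 to 484 (median 414.5) and from 270 to 374 (median 310.0). The middle genes HOXA7, HOXA6 and HOXA5 had 285 to 461, 54 to 112 and 197 to 278 counts. At the low-numbered end, HOXA3, a thymus and parathyroid gene, had 67 to 113 counts and HOXA2 14 to 32. HOXA4, named after its values were seen, had 9 to 30 counts and the SD of its log2 CPM was 0.53, above that of 82.7% of all tested genes. The SD of log2 CPM over the 8 untreated libraries had a median of 0.25 over the 11 HOXA genes, against 0.28 over all 17881 tested genes.

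HOXB expressed its low-numbered genes and HOXB13. HOXB2 had 324 to 600 counts (median 476.5) over the untreated libraries, HOXB3 276 to 418 (median 354.0) and HOXB4 312 to 665 (median 441.0). HOXB13, a gene of the prostate and hindgut, had 295 to 465 counts (median 399.0). HOXB5, HOXB7, HOXB8 and HOXB1, between and before them, had at most 16, 2, 11 and 1 counts in any library. In HOXD the low-numbered HOXD4 had 180 to 347 counts (median 263.5) and HOXD3 20 to 87 (median 54.0), lowest in OGG1 knockout clone 22.

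HOXC and HOXD varied more. The median SD was 0.78 over the 7 tested HOXC genes, 0.77 over the 8 tested HOXD genes and 0.37 over the 7 tested HOXB genes. HOXC11 had the widest spread of the tested HOX genes (SD 2.25), above 99.78% of all tested genes, followed by HOXC9 (1.48) and HOXD11 (1.20). Low counts widen such an SD, and HOXD9, HOXD10 and HOXD11 had at most 26 counts in any library.

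**Figure D2:**
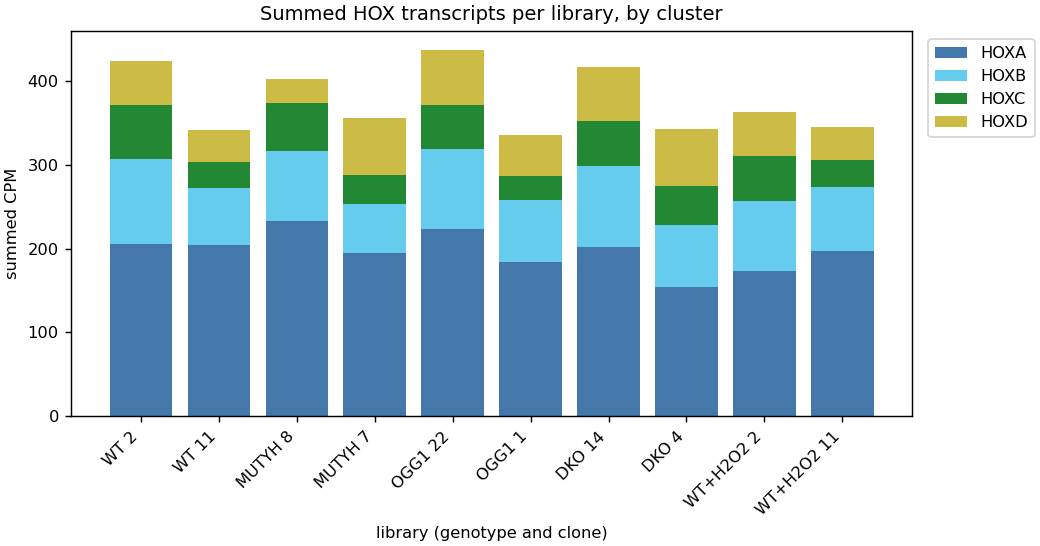
Bars stack the summed CPM of the 4 clusters in each of the 10 libraries, from 0. The HOX sum was higher in 4 untreated clones (WT 2, MUTYH knockout 8, OGG1 knockout 22, DKO 14) than in the other clone of the same genotype, and HOXA was the largest share in every library.

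The HOX total differed more between clones than between genotypes. Summed over the 39 genes it was 424 CPM in WT clone 2 against 341 in clone 11, 402 in MUTYH knockout clone 8 against 356 in clone 7, 437 in OGG1 knockout clone 22 against 335 in clone 1, and 416 in DKO clone 14 against 343 in clone 4. The genotype means were 383 ± 58.7 CPM in WT, 379 ± 32.6 in the MUTYH knockout, 386 ± 72.2 in the OGG1 knockout and 379 ± 51.7 in DKO (SD, n = 2), so they differed by less than the spread between clones. The clones with the higher sum were those on 1 side of the principal component. Gene by gene, 10 of 33 tested HOX genes (30.3%) were higher in that clone in 4 of 4 genotypes, against 24.4% of all tested genes, and 4 (12.1%) were lower in it in 4 of 4, against 22.6%. Among the 10 were HOXA9, HOXB2, HOXB4, HOXB5, HOXB9, HOXB13, HOXC8, HOXC13 and HOXD8, and the 4 were HOXA2, HOXA5, HOXD3 and HOXD4.

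Several HOX genes were several-fold apart between clones of the same genotype. In WT, 8 of 33 tested HOX genes (24.2%) differed over 2-fold between the clones, against 8.49% of all tested genes. The share was 30.3% against 9.06% in the MUTYH knockout, 15.2% against 11% in the OGG1 knockout and 6.06% against 8.01% in DKO. HOXC9, which specifies thoracic motor neurons, had 108 (clone 2) and 18 (clone 11) counts in WT, 49 (clone 8) and 2 (clone 7) without MUTYH, 21 (clone 22) and 8 (clone 1) without OGG1, and 14 (clone 14) and 44 (clone 4) in DKO. HOXC10, which acts in lumbar motor neurons, had 262 and 47, 157 and 21, 49 and 42, and 46 and 57 counts in the same order. HOXB9 had 197 and 55, 119 and 15, 123 and 64, and 175 and 83 counts, and HOXB6 had 57 and 11, 32 and 2, 11 and 13, and 20 and 20. WT clone 2 and MUTYH knockout clone 8 were the 2 highest untreated libraries for HOXC9, HOXC10 and HOXB6. HOXB9 was higher in clones 2, 8, 22 and 14 than in the other clone of the same genotype. In DKO HOXC9 and HOXC10 were higher in clone 4. HOXC4 had 93 and 21, 56 and 40, 20 and 29, and 23 and 20 counts, with WT clone 2 highest. HOXC6 had 217 and 124, 241 and 227, 133 and 154, and 127 and 146 counts. HOXC8 had 429 and 216, 444 and 241, 332 and 194, and 418 and 338.

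The 2 WT clones were also collected after H2O2, which gave each clone 2 libraries. In a comparison added after the data were seen, WT clone 2 was tested against clone 11 over treated and untreated libraries together, with 1 residual degree of freedom. A gene was called where its unadjusted P was at most 0.05 and its log2 fold change beyond 1, the study's criterion, which 6.15% of all 16997 tested genes met. Of 30 tested HOX genes, 4 were called and all were higher in clone 2. HOXC9 differed by 2.89 ± 0.33 (log2, SE; edgeR adjusted p of 9.83e-05) and HOXC10 by 1.88 ± 0.27 (adjusted p of 0.000733). HOXC4 differed by 2.16 ± 0.35 (adjusted p of 0.00147) and HOXB6 by 1.67 ± 0.41 (adjusted p of 0.0213). HOXD13 was higher in clone 2 by 0.92 ± 0.15 (adjusted p of 0.00203) and did not reach the fold limit. These p-values compare 2 clones, not conditions. Of the called genes, HOXB6 shares 32.9% of its exon bases with other annotated genes, HOXC4 17.5%, HOXC9 9.78% and HOXC10 9.66%. Among the 24 noncoding RNAs listed for the clusters, HOXC-AS1 was called higher by 2.0 ± 0.55 (edgeR adjusted p of 0.0393). HOXC-AS2 was called higher by 1.31 ± 0.48 (adjusted p of 0.121) and HOTAIR lower, at -1.04 ± 0.41 (adjusted p of 0.146). HOXC-AS1 lies within the span of HOXC9 on the other strand but shares no exon bases with another annotated gene. HOXC-AS2 shares 7.36% of its exon bases with HOXC6 and HOXC9. Strand use is not given, so counts of HOXC-AS2 may not be separate from those of HOXC9. For HOXC-AS1 this could hold only for reads outside the annotated HOXC9 exons.

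HOXC11 and HOTAIR were high in 3 libraries of 1 lineage and low elsewhere. HOXC11 is a 5′ HOXC gene of the lumbosacral body and the hindlimb. HOTAIR is a long noncoding RNA on the opposite strand whose span overlaps that of HOXC11, known for binding Polycomb complexes. HOXC11 (chromosome 12, 53973126 to 53977643, plus strand) had 184 counts in OGG1 knockout clone 22 and 181 and 174 in DKO clones 14 and 4, against 21 (clone 2) and 24 (clone 11) in WT, 9 in each MUTYH knockout clone, and 1 in OGG1 knockout clone 1. HOTAIR (53962308 to 53974956, minus strand) had 299, 316 and 340 counts in the same 3 libraries, against 17 and 42 in WT, 3 and 15 in the MUTYH knockout and 0 in OGG1 knockout clone 1. The 3 high libraries did not overlap with the other 5 for either gene, as was the case for 5.74% of all tested genes. Both OGG1 knockout clones carry the same label but stood at opposite ends. HOXC11 shares no exon bases with another annotated gene.

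As means, HOXC11 stood at 7.99 ± 0.186 CPM in the lineage (SD, n = 3) and 0.571 ± 0.419 in the other untreated libraries (n = 5), and HOTAIR at 14.2 ± 0.997 and 0.688 ± 0.735. In a comparison of these 3 with these 5 libraries, also added after the data were seen, 1.9% of the tested genes were called and 2 of 33 HOX genes were. HOXC11 was higher by 3.79 ± 0.54 on the log2 scale (edgeR P of 4.53e-05, adjusted p of 0.128) and HOXC4 lower, at -1.19 ± 0.46 (adjusted p of 0.570). HOTAIR was higher by 4.35 ± 0.74 (adjusted p of 0.177), the single called member of its list, of which 14 of 24 were tested. The adjusted p of HOXC11 depended on the method. It passed 0.05 with DESeq2 (4.12e-09), edgeR with legacy=FALSE (0.00976), edgeR without the filter on low counts (0.00894) and edgeR without OGG1 knockout clone 1 (0.0219), and lay between 0.0644 and 0.765 in the other alternatives, all of which kept its call. HOXC4 lost its call without WT clone 2 (-0.82), without OGG1 knockout clone 22, and without either DKO clone. The 3 libraries descend from 1 clone, so the lineage counts as 1 founding event and the p-values cover only the spread between these libraries. The grouping follows the clone table, but it was compared after the levels of HOXC11 and HOTAIR were known, so the p-values are not independent evidence.

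The neighbours of HOXC11 differed in how far they shared its pattern. HOXC13 had 433, 390 and 276 counts in OGG1 knockout clone 22 and DKO clones 14 and 4, against 316 and 241 in WT, 351 and 196 in the MUTYH knockout and 187 in OGG1 knockout clone 1, and the groups overlapped. HOXC12 had 6, 6 and 3 counts in the lineage against 0 to 2 elsewhere, without overlap but at or near the counting floor. It was 1 of 4 HOX genes called when the filter on low counts was left out, where 2.83% of all genes were called. The antisense RNA HOXC13-AS had 24, 21 and 16 counts in the lineage against 5 to 15 elsewhere, again without overlap. It was higher by 0.91 ± 0.34 (log2, SE; edgeR P of 0.0245, adjusted p of 0.567), short of the fold limit. HOXC10, on the other side, had 46 to 57 counts in the lineage, within its range of 21 to 262 elsewhere. Over the 35 tested genes within 1000 kb outside the HOXC cluster, the median log2 difference was 0.0038, with 1 called higher and 0 lower. The called gene was KRT8, an epithelial marker that lies there beside KRT18 (chromosome 12, 52897187 to 52949954 and 52948871 to 52952906). KRT8 and the blood marker CD34 moved with the same libraries. CD34 had 23, 15 and 23 counts in the lineage, 9 in OGG1 knockout clone 1 and 3 to 5 in the other 4 untreated libraries. KRT8 had 955 to 1021 counts in the lineage, 828 in OGG1 knockout clone 1 and 191 to 645 in the other 4. The summed CPM of 4 epithelial markers was 91.7 to 101 in the lineage and 36.4 to 71.4 in the other untreated libraries, with CDH1 at 0 to 2 counts in all libraries, and that of 5 mesenchymal markers was 340 to 434 against 225 to 472. The 5 blood-cell markers summed to 0.927 to 1.34 CPM against 0.231 to 0.633. Most of the lineage's sum was CD34, at 0.662 to 1.03 CPM. CD33 had 5 to 6 counts in the lineage and 1 to 5 in the other untreated libraries, and the groups overlapped. PTPRC, SPI1 and MPO had 0 to 3 counts in every library. The part of these markers in the result was not tested.

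**Figure D3:**
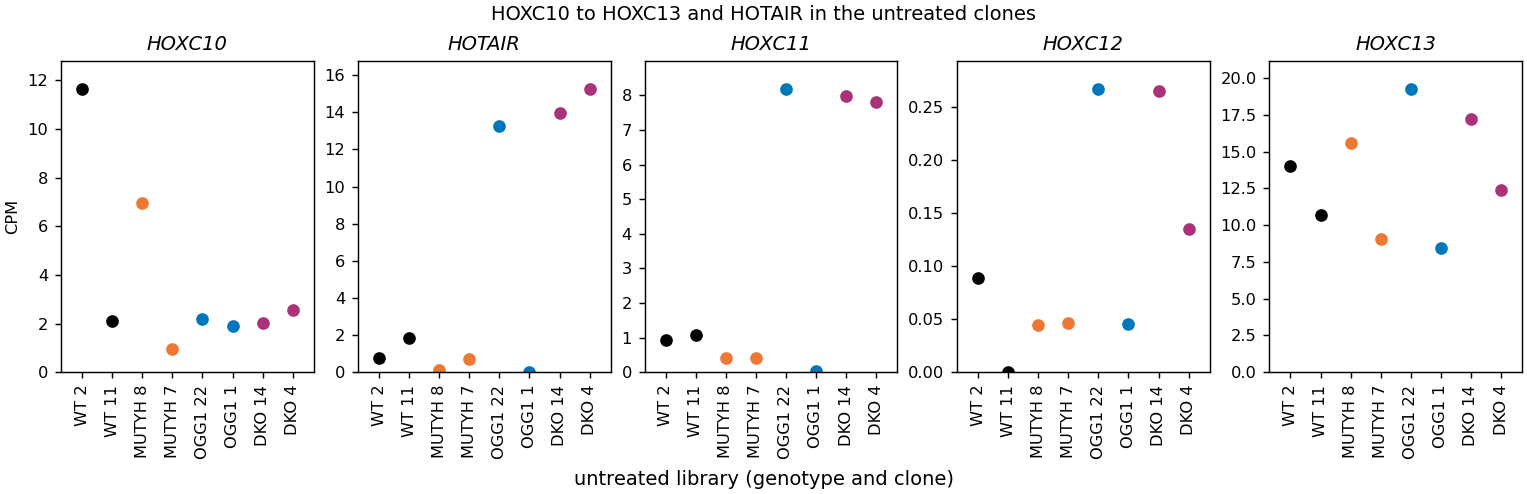
Points give CPM in each of the 8 untreated libraries for HOXC10, HOTAIR, HOXC11, HOXC12 and HOXC13, coloured by genotype, with an axis from 0 for each gene. HOTAIR and HOXC11 are at 13.3 to 15.2 and 7.80 to 8.17 CPM in OGG1 knockout clone 22 and DKO clones 14 and 4, with all 5 other libraries near 0.

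Weak transcripts of HOXD10 and HOXD11 had more counts in each clone lacking OGG1 than in any other untreated clone, whereas those of HOXD9 overlapped. The sequences upstream of HOXD11 and HOXD10, which did not overlap between OGG1-lacking and OGG1-proficient clones, are shown with those of HOXD12 and HOXD13, which did. Each is the 250 bases before the gene's start in RefSeq (GRCh38.p14, plus strand), 5′ to 3′, with CG dinucleotides in capitals.
HOXD13, chr2:176092471-176092720: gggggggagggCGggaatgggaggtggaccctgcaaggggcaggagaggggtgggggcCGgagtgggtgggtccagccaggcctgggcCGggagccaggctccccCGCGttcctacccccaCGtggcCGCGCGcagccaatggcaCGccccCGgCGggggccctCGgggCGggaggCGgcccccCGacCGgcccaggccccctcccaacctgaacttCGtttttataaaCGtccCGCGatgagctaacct
HOXD12, chr2:176099545-176099794: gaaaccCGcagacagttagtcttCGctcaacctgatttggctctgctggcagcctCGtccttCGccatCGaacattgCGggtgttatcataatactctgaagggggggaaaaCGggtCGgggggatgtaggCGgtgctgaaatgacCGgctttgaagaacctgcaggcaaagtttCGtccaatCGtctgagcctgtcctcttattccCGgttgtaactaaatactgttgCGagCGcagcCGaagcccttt
HOXD11, chr2:176107030-176107279: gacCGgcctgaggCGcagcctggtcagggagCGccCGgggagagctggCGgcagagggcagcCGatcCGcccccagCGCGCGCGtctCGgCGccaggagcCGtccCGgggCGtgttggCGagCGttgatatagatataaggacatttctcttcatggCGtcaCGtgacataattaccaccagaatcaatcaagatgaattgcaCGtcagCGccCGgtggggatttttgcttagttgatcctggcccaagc
HOXD10, chr2:176116528-176116777: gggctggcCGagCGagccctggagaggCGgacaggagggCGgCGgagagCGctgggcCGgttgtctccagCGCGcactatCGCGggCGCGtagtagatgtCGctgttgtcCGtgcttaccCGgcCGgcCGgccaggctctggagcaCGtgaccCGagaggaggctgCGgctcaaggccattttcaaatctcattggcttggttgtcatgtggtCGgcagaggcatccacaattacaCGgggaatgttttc

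These windows held 21, 16, 23 and 23 CG dinucleotides, against a median of 11 over 35116 RefSeq promoter windows of the same length. The motif TATAAA, searched on both strands, occurred in the HOXD13 window, where a match on each strand overlaps the other, and in no other of the 4, against 10.7% of all windows. CCAAT occurred in the windows of HOXD13, HOXD12 and HOXD10, against 32.0% of all windows. These matches are descriptions of letters and not of binding. Of the HOX genes, 20 had entries, with 27 windows, a median of 19 CG and CCAAT in 18.

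HOXD10, which patterns the lower spinal cord and hindlimb, had 21 (clone 22) and 26 (clone 1) counts in the OGG1 knockout and 18 (clone 14) and 20 (clone 4) in DKO, against 5 in each WT clone and 1 (clone 8) and 8 (clone 7) in the MUTYH knockout. HOXD11, which acts in the forearm and kidney, had 24, 17, 20 and 15 counts in the same OGG1-lacking clones, against 8, 5, 0 and 8 in WT clones 2 and 11 and MUTYH knockout clones 8 and 7. The 4 OGG1-lacking libraries lay above the 4 others for both genes, including OGG1 knockout clone 1, which lies outside the lineage. HOXD9 had 13, 23, 15 and 26 counts against 16, 10, 1 and 7, and the groups overlapped. HOXD12 had 12, 14, 12 and 16 against 26, 12, 17 and 13. HOXD13 had 989, 436, 1044 and 972 against 647, 317, 214 and 984, and HOXD8, 183, 132, 124 and 116 against 176, 151, 167 and 107. Of 33 tested HOX genes, these 2 did not overlap, against 3.26% of all tested genes (1.71% higher and 1.55% lower). HOXD10 and HOXD11 share 18.2% and 21.4% of their exon bases with each other, so the counts of the pair are not fully separate.

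Means were 0.95 ± 0.162 CPM against 0.214 ± 0.133 for HOXD10 (SD, n = 4 each), 0.847 ± 0.169 against 0.237 ± 0.171 for HOXD11 and 0.861 ± 0.286 against 0.380 ± 0.276 for HOXD9. In the comparison of OGG1-lacking with OGG1-proficient clones, 5 of 33 HOX genes were called, against 1.57% of all tested genes. HOXD10 was higher by 2.12 ± 0.50 (log2, SE; edgeR P of 0.00337), HOXD11 by 1.86 ± 0.65 (P of 0.0231), HOXD9 by 1.39 ± 0.53 (P of 0.0317) and HOXC11 by 3.15 ± 1.00 (P of 0.0153). HOXC4 was lower, at -1.18 ± 0.46 (P of 0.0362). All had an edgeR adjusted p of 1.00 over all tested genes. Of the 4 OGG1-lacking libraries, 3 form the lineage that descends from 1 OGG1 knockout clone. The fit treated these libraries as separate clones, so its P values and the n of 4 do not count independent losses of OGG1. Over the 33 HOX genes the median log2 difference was -0.045, against 0.0020 over all tested genes.

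Which library was left out decided most of these calls. HOXD10 was called in each fit that left out 1 library. HOXD11 lost its call without WT clone 11 (1.71), OGG1 knockout clone 22 (1.73) or DKO clone 14 (1.75). HOXD9 lost it when any 1 of WT clone 11, DKO clone 4, OGG1 knockout clone 1 and MUTYH knockout clone 8 was left out, with 0.98 to 1.24. HOXC11 was at -0.02 without OGG1 knockout clone 22. HOXC4 moved to -0.47 without WT clone 2 and also lost its call without MUTYH knockout clone 8, OGG1 knockout clone 22 or either DKO clone. When OGG1 knockout clone 1 alone was set against the 4 OGG1-proficient libraries, HOXC11 was lower, at -3.66, and HOXC11 and HOXD10 were called, against 1.13% of all tested genes. The single OGG1-lacking library in that fit was assumed to vary like the proficient ones, which alone supplied the spread. The same markers moved here: CD34 was called higher by 2.10 ± 0.44 (edgeR adjusted p of 0.974), EPCAM by 2.10 ± 0.41 (0.974) and KRT8 by 1.42 ± 0.39 (1.00), and their part was not tested.

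**Figure D4:**
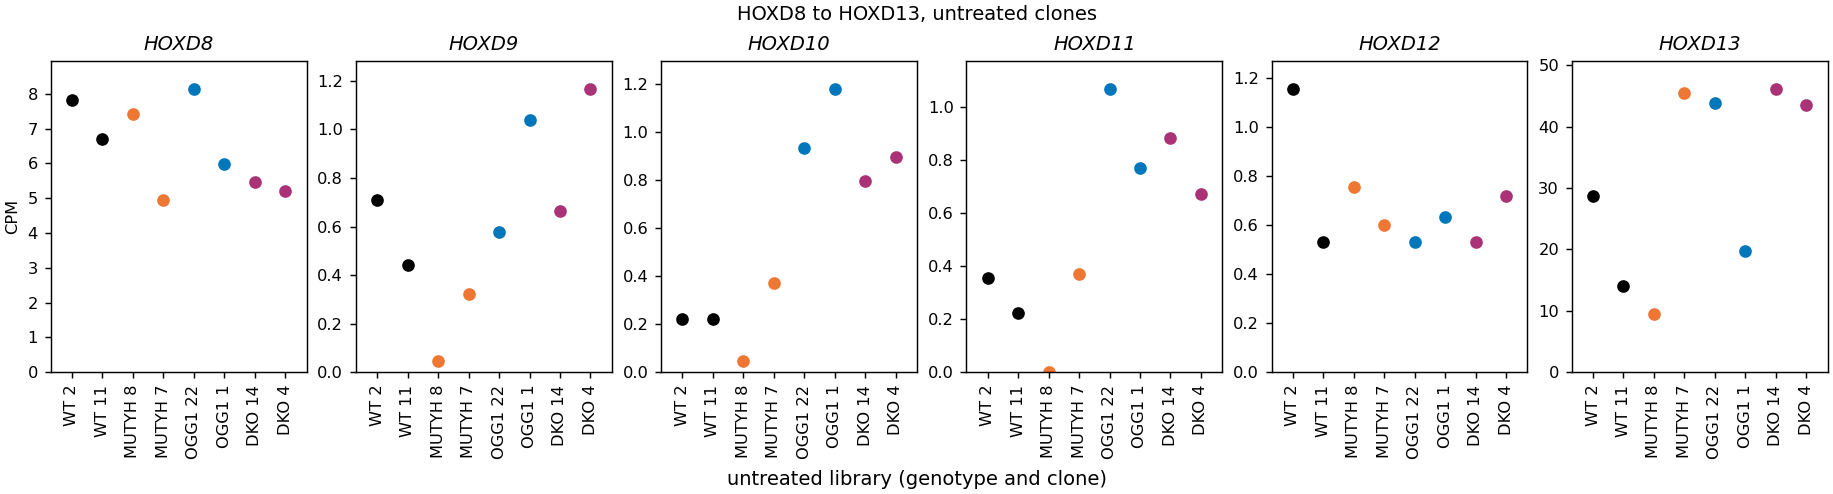
Points give CPM in each of the 8 untreated libraries for HOXD8 to HOXD13, coloured by genotype, with an axis from 0 for each gene. For HOXD10 and HOXD11 the 4 OGG1-lacking libraries lie above the 4 others, while the groups overlap for HOXD8, HOXD9, HOXD12 and HOXD13.

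Set against WT genotype by genotype, few HOX genes were called. All 3 knockouts share their 2 WT controls, so their values are not independent. Both DKO clones also descend from 1 of the OGG1 knockout clones, by the study's clone table. In the MUTYH knockout 0 of 33 were called by edgeR, against 1.19% of all tested genes, and the median log2 difference was -0.23 against 0.013 over all tested genes. In the OGG1 knockout 1 was called, against 1.67%: HOXD10, by 2.22 ± 0.70 (edgeR adjusted p of 0.999). In DKO 1 was called, against 1.77%: HOXD10, by 1.91 ± 0.70 (edgeR adjusted p of 1.00). HOXD10 lost its call in the OGG1 knockout without WT clone 2, WT clone 11 or OGG1 knockout clone 1, and in DKO without any 1 of the 4 libraries compared. In the MUTYH knockout 6 were called without MUTYH knockout clone 8 (HOXB5, HOXB6, HOXB8, HOXB9, HOXC9 and HOXC10), against 2.44% of all tested genes, and 2 without clone 7 (HOXD9 and HOXD11), against 1.27%. In fits that left out 1 clone of a genotype, the remaining clone was assumed to vary like those of the other genotypes, which supplied the spread. Between MUTYH-lacking and MUTYH-proficient clones 0 of 33 were called, against 0.721%, and in the interaction of both losses 0 of 33, against 2% of all tested genes. In these last 2 comparisons and in the MUTYH knockout, the unadjusted edgeR P was above 0.05 for every HOX gene (0 of 33 passed, against 1.62%, 2.62% and 1.72% of all tested genes), and DESeq2 also called 0.

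No gene of the pathway lists other than cluster noncoding RNAs met the criterion. Of 9 genes for partner proteins of HOX factors (PBX, MEIS and PKNOX families), 16 activators such as KMT2A and CDX2, 27 Polycomb genes and 16 genes bordering the clusters, 0 were called by edgeR in any of the 9 comparisons, with 9, 14, 27 and 12 of them tested. At an unadjusted P of at most 0.05 without a fold limit, 0, 0, 1 and 0 of them passed in the OGG1-lacking comparison (the Polycomb gene CBX7), against 3.79% of all tested genes. After H2O2 2, 2, 2 and 1 passed, against 7.63%, and between WT clones 2 and 11 3, 2, 6 and 2, against 22.4%. In the other comparisons 0 to 2 of each list passed. In the OGG1-lacking comparison their median log2 differences were -0.077, -0.047, -0.049 and 0.11. In DKO the antisense RNA HOXC13-AS was called higher by 1.29 ± 0.55 (edgeR adjusted p of 1.00).

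After H2O2 few HOX transcripts moved over 2-fold. HOXD9 had 16 (clone 2) and 10 (clone 11) counts in untreated WT and 3 and 1 after treatment. HOXC4 had 93 and 21 before and 45 and 10 after. HOXB9 had 197 and 55 before and 214 and 312 after, so that the rise lay in clone 11. HOXD9 was low in both treated libraries and did not overlap with the untreated ones, which held for 41.1% of all tested genes with 2 libraries a group, HOXC4 was lower by a like factor in both clones while the ranges overlapped, and HOXA13 had 1660 and 1740 counts before and 1104 and 1600 after. Of the 33 HOX genes tested among untreated libraries, 10 were lower after treatment without overlap, against 20.1% of all tested genes, and 2 were higher, against 21.0%. The 10 were HOXA2, HOXA4, HOXA5, HOXA6, HOXA9, HOXA10, HOXA13, HOXB3, HOXB13 and HOXD9, and the 2 were HOXB9 and HOXD10. The HOX sum was 383 ± 58.7 CPM before and 354 ± 12.5 after (SD, n = 2).

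Of 30 tested HOX genes, 1 was called, against 1.75% of 16997 tested genes: HOXD9, lower, at -2.62 ± 0.73 (log2, SE; edgeR adjusted p of 0.638). DESeq2 called 0, with -2.69 for HOXD9. The same 2 clones were treated and untreated, and with clone as a block 3 were called, against 2.78%. HOXD9 was lower, at -2.63 ± 0.69 (edgeR adjusted p of 0.0668), HOXC4 lower, at -1.04 ± 0.34 (adjusted p of 0.124) and HOXB9 higher by 1.21 ± 0.39 (adjusted p of 0.120). Without treated clone 11 the HOXD9 difference was -2.04 and was not called, and without untreated clone 2 HOXD9 did not pass the filter and HOXB9 and HOXC10 were called, against 2.79% of all tested genes. Per clone, 13 of the 30 genes were lower after treatment in both clones, 4 were higher in both and 13 moved in opposite directions. Over 2-fold changes numbered 1 in clone 2 (HOXD9) and 2 in clone 11 (HOXD9 and HOXB9). Of the tested genes no other was beyond 2-fold in either clone.

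**Figure D5:**
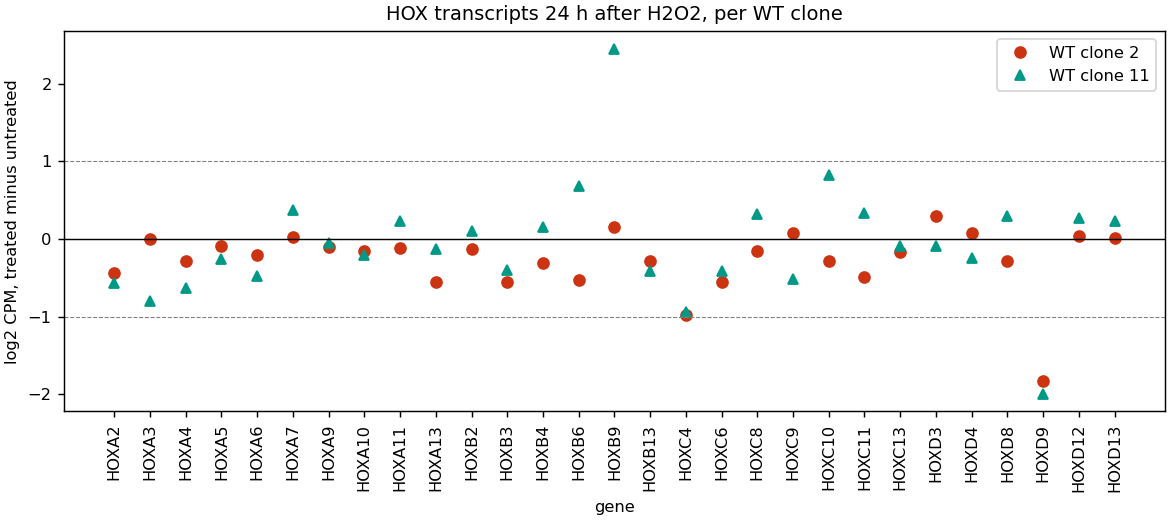
For each tested HOX gene shown, points give the log2 CPM difference between the treated and untreated library of WT clone 2 and WT clone 11, with dashed lines at 2-fold. HOXD9 lies at -1.82 and -2.0, HOXC4 at -0.98 and -0.94, and HOXB9 at 0.16 in clone 2 and 2.45 in clone 11.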

How the data were processed

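RNA was sequenced by the authors on a DNBseq platform, aligned to GRCh38 with HISAT2 2.2.1 and counted per gene with featureCounts against Ensembl 103. Strand use and the handling of overlapping or multiply aligned reads are not given in the sources used here. The deposited values were whole-number read counts per gene, not normalized; the untreated WT columns, present in both tables, were used 1 time. Positions came from GENCODE 44, another release.

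Counts were tested with edgeR 4.0.16 (R 4.3.3) by its quasi-likelihood method (glmQLFit and glmQLFTest, legacy=TRUE, two-sided) after TMM scaling, filterByExpr by group and estimateDisp, with Benjamini-Hochberg adjusted p over all tested genes. Genotypes shared 1 fit of 8 libraries, and treatment a fit of 4. CPM is TMM-normalized. Log2 CPM used a prior count of 2. The fit was tested on simulated counts. Clone differences of treated and untreated WT correlated at 0.681 over 16997 genes, and the same clones were used, so the clones pair these libraries. DESeq2 1.42.0 was an alternative.

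Members and lists were chosen with earlier results of these data known. Genes with a mean of at least 1 CPM in a group, and called genes, were named with values, of listed genes at most 2 per list and comparison; the level of others is given by range. The named result of 1 member is not reported here, although counts and sums include it. A level of 1 CPM carries a counting error of up to 21.5%. Libraries of a group are separate clones, but both DKO clones descend from 1 OGG1 knockout clone. Floors cover counting error only. Values after ± are SDs between libraries or SEs of log2 differences. Each SE is the size of the log2 difference divided by the square root of the edgeR F statistic.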

Additional observations from a re-analysis of the deposited data

Results flagged for a closer look

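HOXC11 and HOTAIR in OGG1 knockout clone 1 stood apart from the other 3 OGG1-lacking libraries. For HOXC11 the clone had 0.0452 CPM against 7.80 to 8.17 CPM, and its gap to the nearest library was 0.954 of the group's whole range. For HOTAIR it was listed at 0 CPM against 13.3 to 15.2 CPM, with a gap of 0.871 of the range. Both gaps passed the limit of Dixon's test, and 18 groups were examined. About 1 of 20 groups of independent libraries pass that limit by chance. The other 3 OGG1-lacking libraries form 1 lineage, so this chance rate does not apply to them. The test therefore cannot show whether clone 1 is unusual, and the gaps only describe these libraries. HOXC11 and HOTAIR overlap on opposite strands, so their gaps are not independent of each other.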

How the results depend on the processing

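The count of called HOX genes rested on few libraries. The share of all tested genes called also moved with the library left out. The counts below therefore describe how calls moved and are not results about HOX genes. Of 110 alternatives for such counts 59 stayed within 1.5 times, and of 153 for single genes 123 kept direction and call, 28 lost the call, 0 gained it and 2 changed sign. Leaving out each library in turn gave 0 to 6 called HOX genes in the MUTYH knockout, 0 to 3 in the OGG1 knockout, 0 to 3 in DKO, 2 to 7 between OGG1-lacking and OGG1-proficient clones, 0 to 3 between MUTYH-lacking and MUTYH-proficient clones, 0 to 5 for the interaction, 0 to 2 after H2O2 and 1 to 4 for the lineage. The difference of HOXC11 between OGG1-lacking and OGG1-proficient clones ranged from -0.018 (without OGG1 knockout clone 22) to 3.64 (without clone 1) and was -3.66 without the clone 22 lineage, where 2 HOX genes were called. No such value could be had for WT clone 2 against clone 11, since leaving out a library leaves no residual degrees of freedom.

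In what follows, the share of all tested genes called in the same fit is given in brackets. Without the filter on low counts, 38 HOX genes were tested. Of these, 1 was called in the MUTYH knockout (1.53%), 4 in DKO (2.02%), 1 for MUTYH-lacking clones (1.07%) and 4 for the lineage (2.83%). With only the 4 libraries of both groups, 1 of 30 was called in the MUTYH knockout (1.06%). In the same setting 2 of 32 were called in the OGG1 knockout (1.77%) and 4 of 33 in DKO (2.15%). With the split of the libraries as a block, 33 were tested. Of these, 1 was called in the MUTYH knockout (1.78%), 2 in DKO (2.44%) and 4 for the lineage (2.12%). DESeq2 called 2 of 33 in the OGG1 knockout (1.71%) and 0 of 30 after H2O2 (0.906%). With legacy=FALSE, edgeR called 2 of 33 in DKO (1.98%). The causes were not tested. With clone as a replicate block, 3 of 30 HOX genes were called after H2O2 (2.78%). Since HOXD9, HOXD10 and HOXD11 had at most 26 counts, their folds are imprecise. DESeq2 size factors in edgeR changed no count by over 1.5 times.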
